A study of Mus musculus with 32 samples.

Results

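The late days of UB/OC-1, a mouse cell line, at 39 °C were compared with its middle days at the same temperature. The late group held days 8, 9, 11 and 14 of experiment A and day 9 of experiment B. The middle group held days 4, 5, 6 and 7 of experiment A and day 4 of experiment B, so both groups had 4 samples of the first experiment and 1 of its replica. Samples were placed by the titles in their labels. RNA of each day was hybridised to 2 array designs, called a and b, which gives 5 late and 5 middle arrays per design and 20 of the 32 samples of the series. The remaining samples, day 0 at 33 °C and days 1 to 3 at 39 °C, entered the estimate of the spread and served as a background beside the main comparison.

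UB/OC-1 is a conditionally immortal clonal line made from embryonic cells of the organ of Corti, the part of the cochlea where hair cells turn sound into electrical signals and supporting cells surround them. All groups share its immortalising gene, a temperature-sensitive large T antigen, which is active at 33 °C and drives division, and which loses function at 39 °C. Cells held at the higher temperature leave the cell cycle, and some genes of hair cells and of the otic epithelium are then expressed, so the line serves as a culture model of sensory cell differentiation. It is a single line without the neighbouring tissues of the ear. The comparison of late with middle days asks what still differed once the cells had been at 39 °C for several days.

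Of the 14 hair cell genes on a list for this tissue that had a probe set on the arrays, 6 were above the noise floor on at least 5 of the 10 arrays, among them Myo7a, an unconventional myosin of hair bundles. A further 4, including Atoh1, the transcription factor that starts hair cell differentiation, and Gfi1, were above it on none. Of 13 supporting cell genes 4 were above the floor on at least 5 arrays, and 6, including Sox2, on none. By the same count 9 of 21 muscle and 8 of 20 macrophage and blood genes passed, so these counts do not identify the tissue.

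Ddit3, Atf5, Igfbp7 and Fn1 passed the test of late against middle with experiment as a block or within experiment A, and 3 of these 4 genes matched the promoter table, so the windows around the transcription starts of Ddit3, Atf5 and Igfbp7 are shown. The sequences are from RefSeq on the GRCm38.p6 build, each with 250 bases before the start and 50 after it, printed along the strand of the gene. They lie at chr10:127290543-127290842 (plus strand), chr7:44816609-44816908 (minus strand) and chr5:77407996-77408295 (minus strand). Capitals mark matches to the motifs searched.
Ddit3: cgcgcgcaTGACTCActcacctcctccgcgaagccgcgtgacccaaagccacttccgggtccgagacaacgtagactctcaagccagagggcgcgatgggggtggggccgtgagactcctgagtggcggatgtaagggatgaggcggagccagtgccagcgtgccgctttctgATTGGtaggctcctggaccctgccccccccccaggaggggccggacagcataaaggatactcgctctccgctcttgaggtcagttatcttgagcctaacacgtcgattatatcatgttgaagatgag
Atf5: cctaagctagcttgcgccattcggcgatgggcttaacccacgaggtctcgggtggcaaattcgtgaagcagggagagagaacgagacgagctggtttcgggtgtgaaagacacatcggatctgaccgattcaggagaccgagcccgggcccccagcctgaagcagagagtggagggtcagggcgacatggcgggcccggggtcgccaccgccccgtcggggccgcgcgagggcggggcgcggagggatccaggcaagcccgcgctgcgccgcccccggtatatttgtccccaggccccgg
Igfbp7: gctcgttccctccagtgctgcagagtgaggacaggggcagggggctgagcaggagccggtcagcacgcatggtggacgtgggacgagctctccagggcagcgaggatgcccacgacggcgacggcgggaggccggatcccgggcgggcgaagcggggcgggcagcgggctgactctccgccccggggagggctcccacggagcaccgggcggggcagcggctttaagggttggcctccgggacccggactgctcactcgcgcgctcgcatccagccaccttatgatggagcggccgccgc

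The motifs were TGATGNAA, bound by dimers of C/EBP and ATF proteins, TGACGTCA, bound by CREB and ATF proteins, TGANTCA, bound by AP-1, and CCAAT, bound by NF-Y, each on both strands. No match overlapped another. They were chosen after the expression values were seen. The Ddit3 window held 1 match to TGANTCA, at positions -242 to -236 from the start, and 1 to CCAAT on the opposite strand, at -77 to -73, and the windows of Atf5 and Igfbp7 held none of the 4 motifs. Among 27025 mouse promoters of the same length, 7.93% held TGANTCA, 37.9% CCAAT, 4.06% TGATGNAA and 1.88% TGACGTCA. Bases outside these windows were not searched, so sites further from the start would not be seen.

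The authors deposited scaled array intensities, of which those under a noise floor of 141 (design a) or 198 (design b) were raised to that floor before log2 was taken. On design a, 46.3% to 50.6% of probe sets exceeded the floor on each late array, against 46.7% to 50.8% on middle days, and on design b 35.6% to 40.4%, against 34.5% to 39.5%. The noise level of an array, the 75th percentile of the size of its negative values, ran on design a from 103 to 204 on late days, against 75 to 173 on middle days, and on design b from 160 to 325, against 109 to 278.5. The number of arrays limits the precision. Nothing states that the days came from separate cultures, so the p-values reflect the spread among these samples alone, and in total RNA of a culture fewer cells of a kind and less RNA per cell cannot be told apart. Below, intensities are listed in the order days 8, 9, 11 and 14 of experiment A and day 9 of experiment B for late, and days 4, 5, 6 and 7 of experiment A and day 4 of experiment B for middle.

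No probe set differed between late and middle days after adjustment for the number tested. Of 7726 probe sets tested, 0 (0.0%) passed an adjusted p of 0.05 in limma, and the smallest adjusted p was 0.18. At an unadjusted p under 0.05 there were 289 probe sets (3.74%), 143 higher (1.85%) and 146 lower (1.89%) on late days. All 5 late arrays lay above all 5 middle arrays for 19 probe sets (0.246%) and below them for 32 (0.414%). Differences ran from -1.97 to 1.86 on the log2 scale with a median of 0.02. A difference over 1 in size was seen for 23 higher and 21 lower probe sets.

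**Figure D1:**
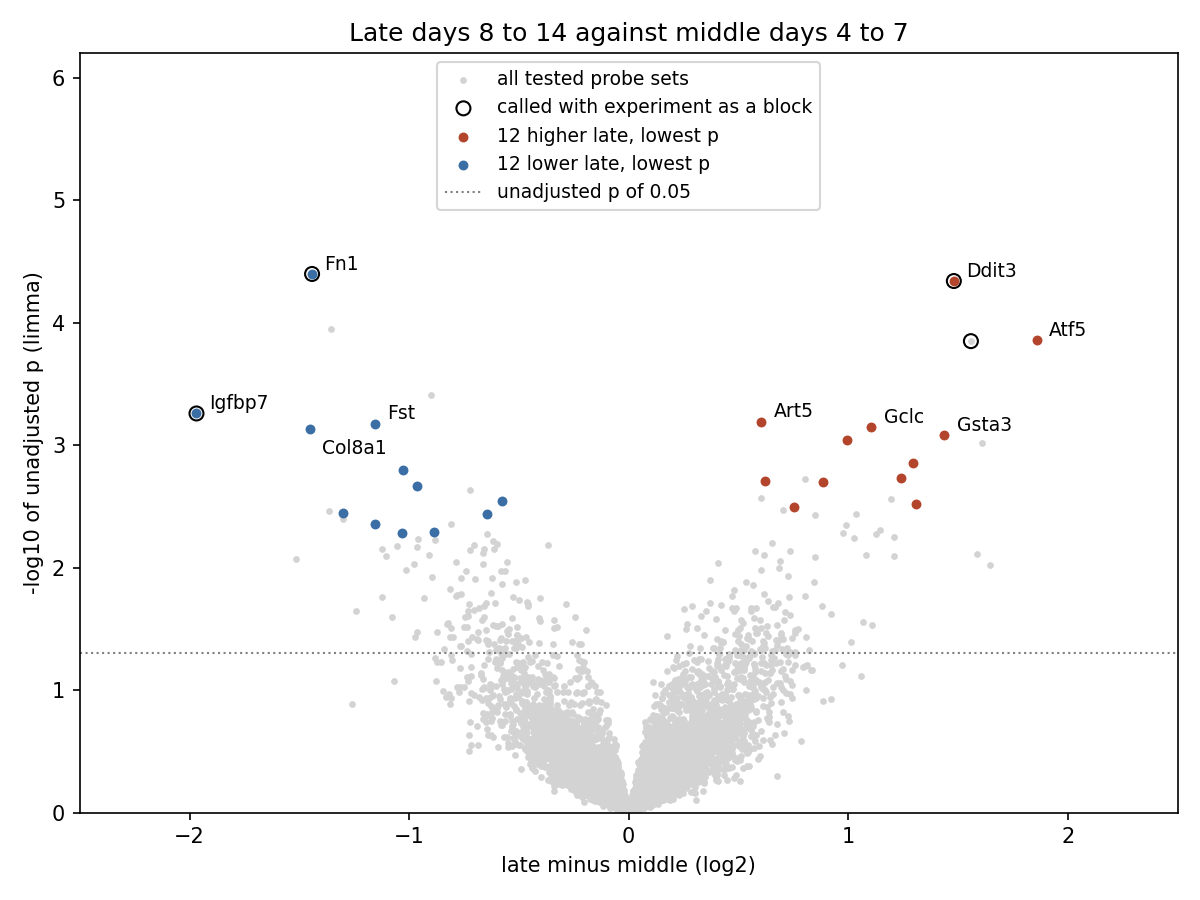
Difference of late minus middle (log2, x axis) against -log10 of the unadjusted limma p (y axis) for 7726 probe sets. The 12 genes of lowest p in each direction are coloured, and rings mark the 4 probe sets called with experiment as a block. Differences lie between -1.97 and 1.86.

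The precision sets what such a result allows. The 95% interval of a difference had a median half-width of 0.58 log2 units, a factor of 1.5, and 10% of the probe sets had a half-width over 0.88. For 5840 probe sets (75.6%) the whole interval lay within 1 log2 unit of 0. Values raised to the floor shrink both a difference and its spread. For probe sets with such values these intervals do not bound changes under the floor. In the same fit, late days against day 0 at 33 °C gave 844 called probe sets (10.9%), and middle against early days gave 0 (0.0%).

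The labels assign each day to one of 2 experiments, so the fit was repeated with experiment as a block. It called 4 probe sets (0.0518%), those of Ddit3, Igfbp7, Fn1 and a probe set with several gene symbols, l12447_s_at. Of the 289 probe sets above, these are described first.

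Ddit3 encodes CHOP, a transcription factor that cells make under endoplasmic reticulum or amino acid stress. Its late intensities were 478, 885, 720, 729 and 249, against 148, -248, 10, 212 and -21 on middle days. All 5 late arrays were above the floor and above every middle array, and 4 of 5 middle arrays were at the floor. The difference was 1.48 ± 0.28 (SE, 5 against 5 arrays), 2.79-fold on the floored scale, a low estimate because of the middle arrays at the floor. It did not pass in the fit of all arrays (adjusted p = 0.18) and passed with experiment as a block (adjusted p = 0.041), within experiment A (1.77, adjusted p = 0.035) and when the late array of experiment B was left out (1.77, adjusted p = 0.0021). Arrays tied at the floor have no spread, which can make such p-values too small.

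Igfbp7, a secreted protein that binds insulin and insulin-like growth factors weakly, had 944, 838, 358, 619 and 146 on late days, against 2837, 2646, 2762, 900 and 1258 on middle days. Day 8 was the only late array above the lowest middle one, that of day 7. The difference of -1.97 ± 0.47 was the lowest of all probe sets and 3.91-fold in size, with an adjusted p of 0.52 in the fit of all arrays and 0.041 with the block. It was -1.68 in experiment A and -3.11 between days 9 and 4 of experiment B.

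Fn1, which encodes the matrix glycoprotein fibronectin, has a probe set on each design, both of a kind shared within gene families, so the assignment is uncertain. On design a it had 522, 950, 475, 395 and 1068 on late days, against 2068, 2014, 1559, 1127 and 2009 on middle days. On design b it had 1300, 1258, 564, 660 and 1302, against 3207, 2999, 1805, 1657 and 3047. No late array reached any middle array on either design. The differences were -1.44 ± 0.27 on design a (adjusted p = 0.18, and 0.041 with the block) and -1.36 ± 0.28 on design b (adjusted p = 0.22, and 0.11 with the block), 2.72-fold and 2.56-fold in size.

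The probe set l12447_s_at, for which the annotation gives several genes, had 1575, 1265, 1563, 1776 and 837 on late days, against 379, 368, 577, 893 and 290 on middle days. Day 9 of experiment B lay below day 7 of experiment A, and the other late arrays above all middle ones. Its difference was 1.56 ± 0.33 (adjusted p = 0.22, and 0.041 with the block).

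**Figure D2:**
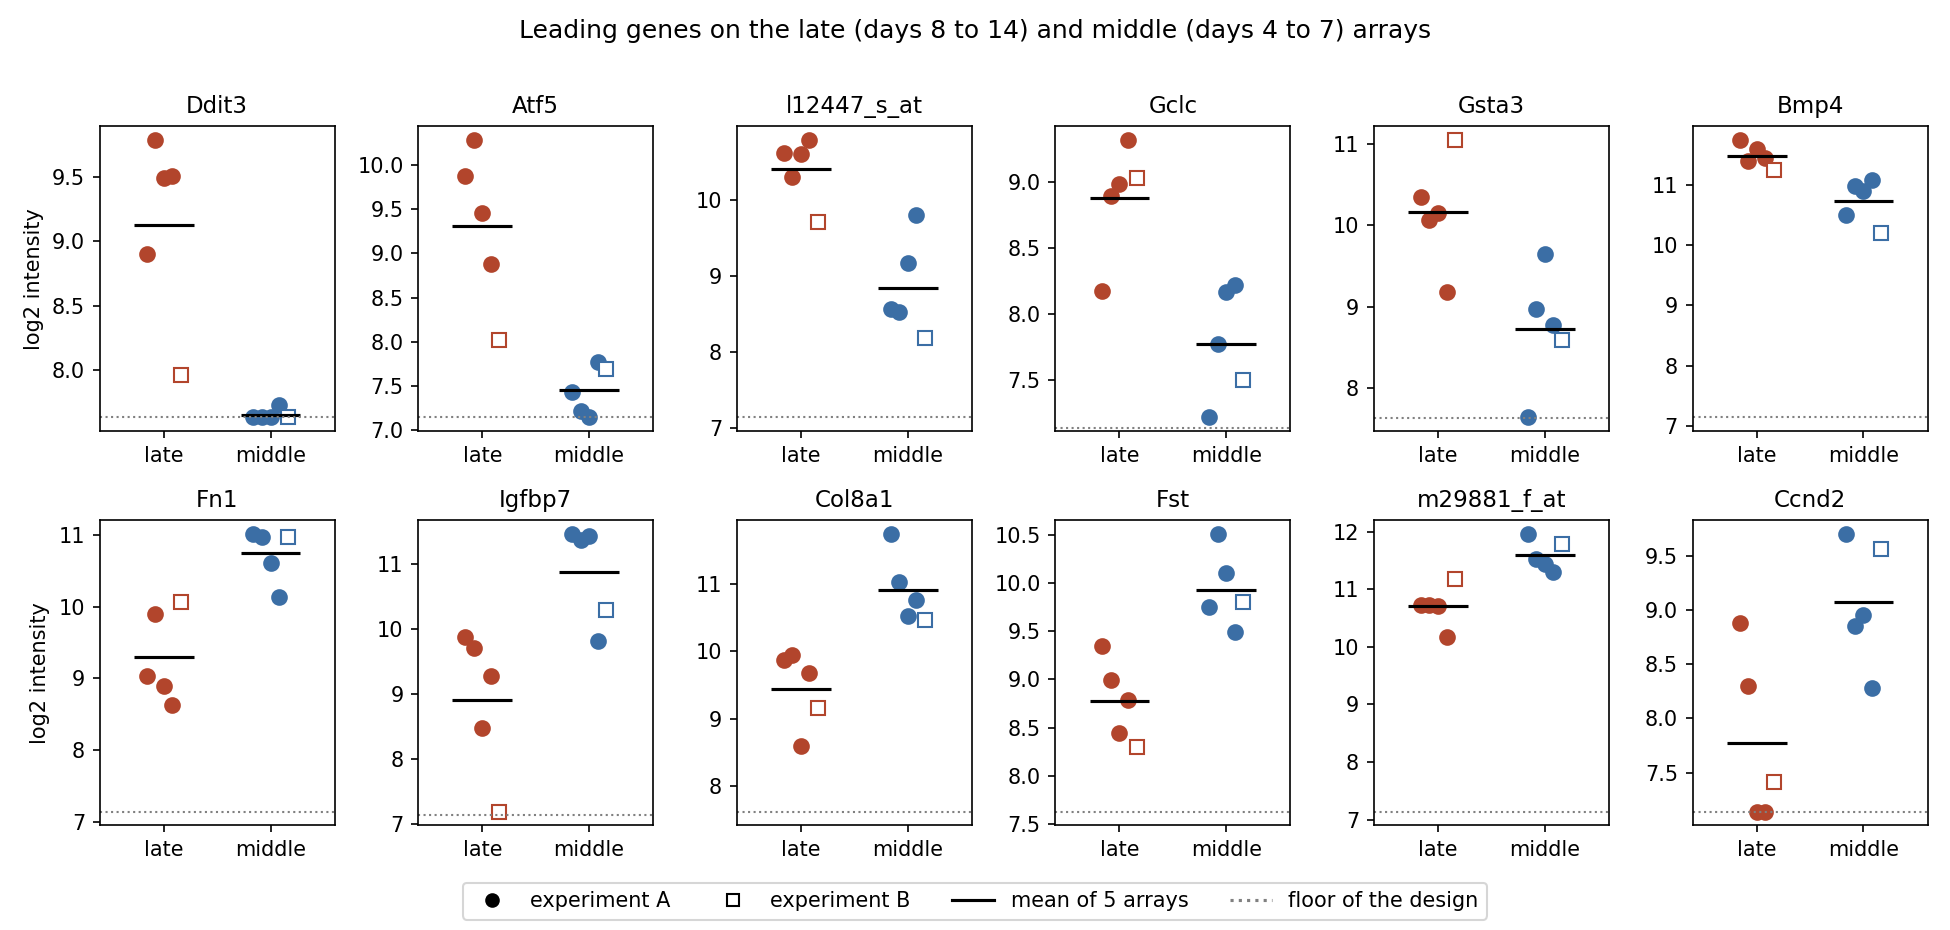
Log2 intensity (y axis) of 12 leading probe sets on the 5 late arrays (left) and the 5 middle arrays (right) of their design. Filled circles are experiment A, open squares experiment B, bars the mean of 5 arrays and dotted lines the floor. Ddit3 averages 9.13 late and 7.65 on middle days, and Fn1 of design a averages 9.30 late and 10.74 on middle days.

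Genes of the stress response to unfolded protein and missing amino acids were among those higher on late days, though not after adjustment. Cells answer these stresses by phosphorylating eIF2, which lowers overall translation but favours that of Atf4 and Atf5, and Atf4 then drives Ddit3, amino acid transporters and aminoacyl-tRNA synthetases. Of 36 probe sets on this list 5 were higher and 0 lower at an unadjusted p under 0.05 (13.9%, against 1.85% higher over all probe sets). Of these 5, 2 were of the synthetase gene Aars. Wholly above the middle arrays lay 2, against 0.246% over all probe sets. The list median was 0.10, with 22 probe sets higher and 14 lower at any p. This list, like the other gene lists, was chosen with earlier results of these data known. The shares of the lists therefore describe them and test nothing. After adjustment 0 passed.

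Atf5, a transcription factor related to Atf4, was not on that list. It had 943, 1251, 706, 470 and 260 on late days, against 172, 148, 9, 218 and 207 on middle days, and the groups did not overlap. The day 9 array of experiment B was the lowest of the late ones. The difference was 1.86 ± 0.39, 3.63-fold and the highest of all probe sets (adjusted p = 0.22, and 0.054 with the block), with 2.24 in experiment A (adjusted p = 0.042) and 0.33 in experiment B. Without day 9 of experiment B it passed (2.18, adjusted p = 0.024).

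Atf4 itself had 2864, 3098, 2426, 1565 and 3788, against 1557, 1630, 1134, 1832 and 2338. Day 14 lay among the middle arrays. Its difference was 0.67 ± 0.29 (adjusted p = 1). The alanyl-tRNA synthetase gene Aars had 981, 870, 1036, 1012 and 949, against 573, 546, 816, 744 and 827, with no overlap (0.49 ± 0.19, adjusted p = 1; 0.62 on its other probe set), and the asparaginyl-tRNA synthetase gene Nars differed by 0.48 ± 0.18 (adjusted p = 1). The 46 probe sets of heat shock proteins and chaperonins had 0 at an unadjusted p under 0.05, a median of -0.08 and a range from -0.64 to 0.58, with Hspa8, a constitutive HSP70, at 0.33 ± 0.20.

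Genes of glutathione and redox defence were a further group. Glutathione is made by glutamate-cysteine ligase and joined to reactive compounds by glutathione transferases, and Nfe2l2 is the transcription factor that induces both kinds of enzyme. Of 32 probe sets of this group 4, of which 2 were of Gclc, were higher and 0 lower at an unadjusted p under 0.05. That was 12.5%, against 1.85% higher over all probe sets, and the group median was 0.09. After adjustment 0 passed.

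Gclc, the catalytic subunit of the ligase, had 290, 476, 507, 640 and 525 on late days, against 149, 219, 288, 299 and 181 on middle days. Only day 8 fell within the middle range. Its difference was 1.11 ± 0.27 (2.15-fold, adjusted p = 0.52), and that of its other probe set was 0.99. Gsta3, a glutathione transferase, had 1307, 1074, 1139, 578 and 2121, against 199, 503, 801, 436 and 386, a difference of 1.44 ± 0.36 (2.71-fold, adjusted p = 0.53). Day 14 was its only late array under the highest middle one. Nfe2l2 had 1543, 1497, 1686, 1446 and 1540, against 1003, 1015, 1105, 1419 and 892, with no overlap and a difference of 0.52 ± 0.22 (adjusted p = 1).

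Extracellular matrix genes lay on both sides, and 0 passed after adjustment in the fit of all arrays. Of 90 probe sets 5 were higher and 6 lower at an unadjusted p under 0.05 (12.2%, against 3.74% over all probe sets). The median was 0.03. Wholly below the middle arrays lay 3, against 0 above, and over all probe sets 0.414% lay below. Those 3 were of Col8a1 and the 2 probe sets of Fn1, and they also count among the 6 lower. Col8a1, a chain of the short-chain collagen VIII, had 933, 982, 386, 817 and 573 on late days, against 3407, 2079, 1474, 1735 and 1407 on middle days. The groups did not overlap, and the difference was -1.45 ± 0.36 (2.74-fold in size, adjusted p = 0.52). Timp1, an inhibitor of matrix metalloproteases, had 484, 283, 245, 188 and 352, against 573, 1296, 886, 368 and 533 (-1.16 ± 0.36, adjusted p = 0.93), with day 8 inside the middle range.

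The matrix-associated growth factor gene Ccn2 was on the other side. It had 102, 280, 333, 507 and 441 on late days, and its middle values of 12, -87, -30, 69 and 133 were all at or under the floor. The fold is 2.21 on the floored scale (1.14 ± 0.36, adjusted p = 0.93 in limma). The late value of 102 was raised to the floor too, so this fold is not a lower bound. Dcn, which encodes the proteoglycan decorin, had 18038, 16368, 17561, 22560 and 5146, against 7459, 6393, 17572, 13483 and 3486. Both of its lowest values within a group were those of experiment B, and day 6 was level with the late arrays. Its difference was 0.79 ± 0.67 (adjusted p = 1).

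The insulin-like growth factor system had 14 probe sets. Apart from Igfbp7 none had an unadjusted p under 0.05, and the median was 0.08. Igfbp2, another binding protein, had 717, 632, 658, 872 and 1352, against 2436, 1172, 808, 966 and 2377 (-0.78 ± 0.44, adjusted p = 1). The ligand gene Igf2 differed by -0.53 ± 0.40 (adjusted p = 1).

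Among genes that act in the developing inner ear, 5 of 35 probe sets were higher and 3 lower at an unadjusted p under 0.05. Over all probe sets 1.85% were higher and 1.89% lower. Of the 5 higher, 2 were of the same gene, Gata2. The list median was 0.11, and 0 passed after adjustment. Bmp4, a signalling ligand of sensory patches in the developing ear, had 3431, 2685, 3069, 2783 and 2428 on late days, against 1450, 2026, 1900, 2158 and 1169 on middle days. The groups did not overlap (0.75 ± 0.22, 1.68-fold, adjusted p = 0.87). Fst encodes follistatin, which binds and blocks activins and some BMPs. It had 653, 510, 349, 443 and 315, against 861, 1459, 1101, 722 and 893, again with no overlap but in the other direction (-1.16 ± 0.28, adjusted p = 0.52).

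Gata2, a zinc finger transcription factor of the developing ear, had 591, 1023, 1137, 1136 and 1061 on late days, against 449, 391, 410, 651 and 561 on middle days. Only day 8 lay within the middle range. Its difference was 1.00 ± 0.25 (adjusted p = 0.53), and 0.80 on its other probe set. Its relative Gata3, needed for the formation of the cochlea, differed by 0.42 ± 0.35 (adjusted p = 1). Aldh1a1, a dehydrogenase that makes retinoic acid, had 10511, 6404, 10054, 10496 and 6395, against 2863, 3926, 6784, 5799 and 2411, a difference of 1.08 ± 0.36 (adjusted p = 0.93), with both day 9 arrays under day 6.

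The hair cell list had 0 of 11 probe sets at an unadjusted p under 0.05 and a median of 0.14. Myo7a had 227, 238, 449, 374 and 393 on late days, against 180, 298, 238, 269 and 129 on middle days (0.58 ± 0.30, adjusted p = 1). Days 8 and 9 of experiment A lay within the middle range. Myo6, the minus-end directed myosin of hair cells, differed by 0.57 ± 0.32 and by -0.06 on its other probe set, and Pvalb, the calcium buffer parvalbumin, by 0.49 ± 0.33 (adjusted p = 1 for both). The actin bundling protein gene Fscn1 differed by -0.77 ± 0.39 (adjusted p = 1).

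Supporting cell genes had 0 of 11 probe sets at an unadjusted p under 0.05 and a median of -0.13. Vim, the intermediate filament vimentin, had 2694, 1633, 1683, 1199 and 3544, against 1856, 2761, 2702, 2137 and 5375 (-0.47 ± 0.34, adjusted p = 1), with experiment B highest in both groups. Krt18, a keratin of simple epithelia, differed by -0.29 ± 0.28. Of the 25 probe sets of the Notch pathway, which sorts hair cells from supporting cells by lateral inhibition, 1 had an unadjusted p under 0.05, that of Numb, an inhibitor of Notch (0.37 ± 0.13, adjusted p = 1). That was 4.0%, against 3.74% over all probe sets.

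Antigen presentation genes of the MHC class I pathway had 5 of 27 probe sets lower and 0 higher at an unadjusted p under 0.05. That was 18.5%, against 1.89% lower over all probe sets, and 2 of the 5 were of Psmb8. The median was -0.17, and 2 lay wholly below the middle arrays, against 0.414% over all probe sets. The whole interferon and MHC class I list of 62 probe sets had a median of -0.003. H2-D1, a heavy chain gene read by a probe set shared within the family, had 3190, 5421, 2651, 3346 and 5375 on late days, against 9767, 7497, 10180, 7472 and 5212 on middle days (-1.03 ± 0.28, adjusted p = 0.78). Both day 9 arrays were above the middle array of experiment B. The other 2 probe sets of H2-D1 had smaller sizes, the smallest being -0.38.

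The immunoproteasome subunit gene Psmb8 had 311, 574, 610, 464 and 548, against 1005, 616, 747, 728 and 814, with no overlap (-0.66 ± 0.22, adjusted p = 0.93). Tap1, which carries peptides into the endoplasmic reticulum, differed by -0.76 ± 0.28 (adjusted p = 1). Ifit3, an interferon-induced protein, lay on the other side with 737, 554, 358, 381 and 753, against 117, 112, 439, 361 and 182 (1.24 ± 0.34, adjusted p = 0.78), and days 11 and 14 overlapped with the middle arrays. Iigp1, an interferon-inducible GTPase, was at the floor on 3 of 5 late and 4 of 5 middle arrays.

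Cell cycle and DNA replication genes had 1 of 81 probe sets higher and 4 lower at an unadjusted p under 0.05. That was 6.17%, against 3.74% over all probe sets, and the median was -0.10. Mki67, a marker of dividing cells, had 671, 738, 461, 672 and 579 on late days, against 747, 744, 747, 826 and 855 on middle days. The groups did not overlap, although the difference was -0.34 ± 0.23 (adjusted p = 1). Mcm7, a subunit of the replicative helicase, also had no overlap, with 373, 759, 659, 897 and 777, against 1043, 952, 1253, 960 and 1070 (-0.66 ± 0.22, adjusted p = 0.93), while its partner Mcm2 differed by 0.58.

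Rrm1, the large subunit of ribonucleotide reductase, differed by -0.88 ± 0.28 (adjusted p = 0.93) and the mitotic cyclin gene Ccnb2 by -0.73 ± 0.30 (adjusted p = 1). Pcna, the sliding clamp of DNA polymerase, differed by -0.15 ± 0.31 and Top2a, a topoisomerase of dividing cells, by 0.10 ± 0.32, with 2 of 5 arrays of each group above the floor. Of 34 probe sets of growth arrest and p53 target genes 3 were lower and 0 higher at an unadjusted p under 0.05. That was 8.82%, against 1.89% lower over all probe sets. The median was -0.18, or -0.07 with 1 probe set per gene. The 3 lower were those of the death receptor gene Fas (-0.46 ± 0.18) and 2 of 3 probe sets of Mdm2, the ubiquitin ligase of p53 (-0.66 ± 0.27 for the stronger one). The CDK inhibitor genes Cdkn1a and Cdkn1b differed by -0.77 ± 0.45 and -0.47 ± 0.39 (adjusted p = 1 for all 4 genes).

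The lowest difference among sterol and fatty acid genes was that of Plin2, a coat protein of lipid droplets, with 293, 364, 99, -2 and 499, against 586, 514, 400, 450 and 659 (-1.02 ± 0.36, adjusted p = 1). Fasn, fatty acid synthase, had 1041, 1330, 1010, 1756 and 849, against 717, 595, 867, 635 and 700 (0.73 ± 0.24, adjusted p = 0.93), and only day 9 of experiment B was under a middle array. Hk1, the hexokinase that starts glycolysis, had 2269, 2173, 2444, 2509 and 3247, against 3598, 3547, 4312, 3570 and 3661. It did not overlap (-0.57 ± 0.17, adjusted p = 0.87), and the glycolysis list of 24 probe sets had a median of -0.16. Got1, a transaminase of the malate-aspartate shuttle, differed by -0.89 ± 0.28 (adjusted p = 0.93). The 46 probe sets of oxidative phosphorylation had 1 at an unadjusted p under 0.05, that of the complex I subunit gene Ndufa5 (-0.80 ± 0.35). That was 2.17%, against 3.74% over all probe sets.

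Of 19 probe sets of tubulins and neuronal genes 4 were lower and 1 higher at an unadjusted p under 0.05. That was 26.3%, against 3.74% over all probe sets. Those lower were all of beta-tubulins, which pair with alpha-tubulin to build microtubules, and 2 of them were of Tubb5. Tubb5 had 3853, 4522, 2656, 3831 and 3813, against 6860, 5265, 6177, 4843 and 5892, with no overlap (-0.65 ± 0.19, adjusted p = 0.87), and -0.51 on its other probe set. Tubb3 and Tubb4b differed by -0.68 ± 0.27 and -0.52 ± 0.23, and Scg2, a secretory granule protein, was the one higher (0.81 ± 0.36). The probe sets of Tubb5 and Tubb4b are shared within the family and can read each other.

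Of 90 probe sets of actin, adhesion and intermediate filament genes 1 was higher and 4 lower at an unadjusted p under 0.05. That was 5.56%, against 3.74% over all probe sets. Itgb4, the integrin chain of hemidesmosomes, had 196, 442, 156, 421 and 90, against 795, 952, 1216, 627 and 263 (-1.51 ± 0.52, adjusted p = 0.96). Tmsb10, which binds actin monomers, had 2031, 1913, 1318, 1366 and 1901, against 3421, 2242, 2219, 2288 and 2848, with no overlap (-0.61 ± 0.20, adjusted p = 0.93). Tpm1, the tropomyosin that coats actin filaments, had no overlap either (-0.41 ± 0.17, adjusted p = 1). Actb and Gapdh, often used as references, differed by 0.17 ± 0.26 and 0.04 ± 0.28.

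Among factors that control transcription or signal outside these groups, Klf4, a zinc finger factor of epithelial differentiation, had 267, 315, 272, 280 and 592 on late days, against 618, 646, 681, 518 and 762 on middle days (-0.96 ± 0.27, adjusted p = 0.80). The late array of experiment B stood above the other 4. Zbtb20, a repressor with zinc fingers, had 1681, 1690, 1193, 1693 and 1005, against 669, 608, 1152, 870 and 654 (0.89 ± 0.25, adjusted p = 0.78). Wt1, a transcription factor, and Art5, an ADP-ribosyltransferase, were at the floor on all middle arrays and above it on 4 of 5 late ones. The differences were 1.54-fold and 1.52-fold on the floored scale (adjusted p = 0.78 and 0.52 in limma). A late array of each was raised to the floor too, so these folds are not lower bounds. The other probe set of Wt1 was above the floor in both groups and differed by 0.73. Vegfd, a ligand of lymphatic vessel growth, differed by -1.03 ± 0.33 (adjusted p = 0.93).

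The 8 lists of markers of other cell types (mesenchymal, muscle, adipocyte, cartilage and bone, melanocyte and glia, blood, endothelial and epithelial) had 0 of 65 probe sets at an unadjusted p under 0.05. Summed over the tested muscle markers the intensities ran from 9613 to 14882 late, against 8342 to 12067 on middle days, and over the macrophage and blood markers from 6945 to 16565, against 5405 to 12944. Many markers of these types were nevertheless above the floor in both groups. Of 21 muscle genes 9 were above it on at least 5 of the 10 arrays, with Myog, Ckm and Actc1 on all 10, and 8, including Myf5 and Acta1, on none. Of 20 macrophage and blood genes 8 were above it on at least 5 arrays, with Ptprc, Lyz2 and Cd14 on all 10, and 7, including Csf1r and Spi1, on none. The counts on at least 5 arrays were 5 of 12 for mesenchymal, 5 of 13 for melanocyte and glial, 5 of 11 for endothelial, 3 of 12 for epithelial, 2 of 8 for adipocyte and 1 of 7 for cartilage and bone genes.

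**Figure D3:**
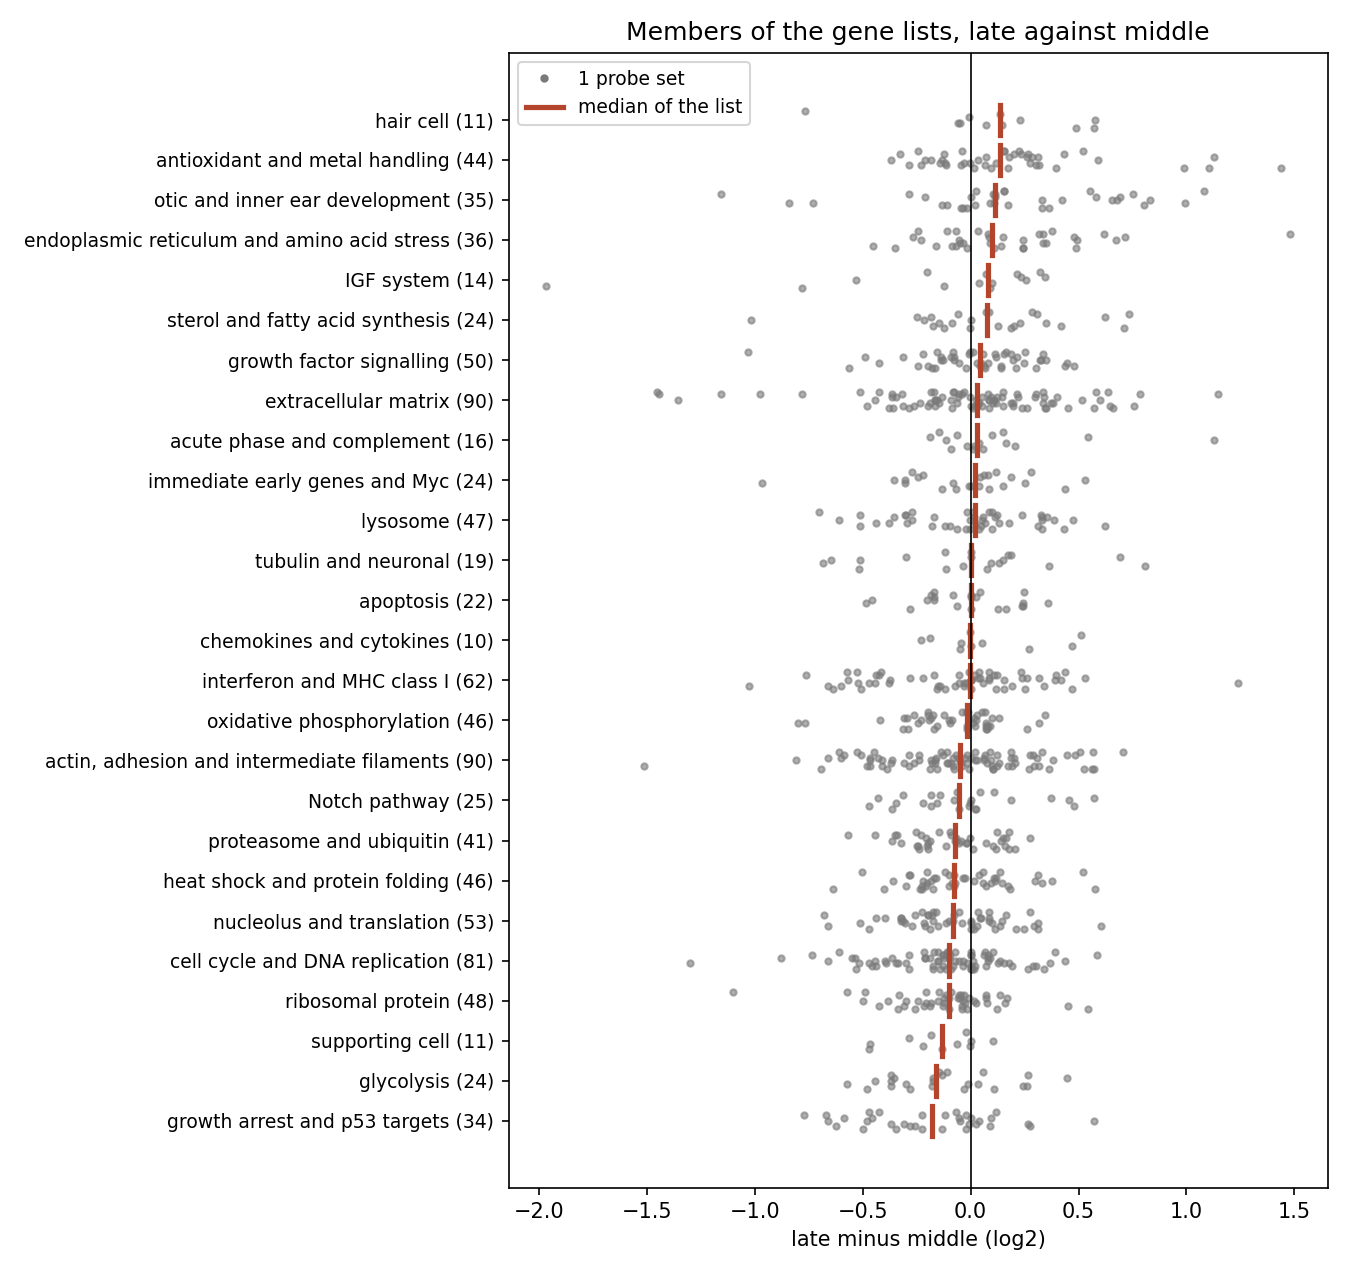
Late minus middle (log2, x axis) for each tested probe set of 26 gene lists (rows, with the number of probe sets). Points are probe sets and bars list medians, which run from -0.18 for growth arrest and p53 targets to 0.14 for hair cell genes, against 0.02 over all 7726 probe sets. With 1 probe set per gene the median of the growth arrest list is -0.07.

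A second question was whether values moved steadily with day from day 4 to day 14, without a border between days 7 and 8. The slope passed for 12 probe sets (0.155%), 5 rising (0.0647%) and 7 falling (0.0906%), and 867 (11.2%) were under 0.05 before adjustment. The fit blocked by experiment called 20 (0.259%), among them all 12. Changes below are the fitted slope over 10 days, from day 4 to day 14, on the log2 scale.

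The matrix gene Fn1 fell by 2.58 ± 0.39 (5.99-fold) on design a. On design b it fell by 2.59 ± 0.36 (6.03-fold, adjusted p = 0.030 for both). Ccnd2, which encodes the G1 cyclin D2, had 835, 464, 498, 311, 472, 315, 117 and -10 on days 4 to 14 of experiment A, and 757 and 170 on days 4 and 9 of experiment B. It fell by 2.67 ± 0.46 (adjusted p = 0.035), with days 11 and 14 at the floor. Frmd6, a FERM domain protein of the Hippo pathway, fell by 3.01 ± 0.51 (adjusted p = 0.030). It had 1354 and 1375 on day 4 of the experiments and was at the floor on day 11.

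Rps26, a protein of the small ribosomal subunit, had 1401, 891, 962, 711, 716, 905, 275 and 196 in experiment A and 1305 and 697 in experiment B. It fell by 2.64 ± 0.39 (adjusted p = 0.030). This probe set of Rps26 is of a kind shared within gene families, so the assignment is uncertain. The other 47 ribosomal probe sets had 0 called slopes, and the list had a median slope of -0.09. The probe sets m29881_f_at and aa543972_at, with several gene symbols each, fell by 1.65 ± 0.27 and 2.07 ± 0.33 (adjusted p = 0.030 for both), and the first had 1688, 1696, 1671, 1160 and 2332 on late days, against 3998, 2965, 2774, 2517 and 3528 on middle days.

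Anxa5, an annexin that binds membrane phospholipids, was among those that rose. It had 805, 862, 1301, 1452, 1127, 1813, 5236 and 5263 on days 4 to 14 of experiment A and 1423 and 3113 in experiment B, a rise of 2.73 ± 0.45 (6.62-fold, adjusted p = 0.030). Days 11 and 14 stood well above the others. Rflnb, a partner of the actin crosslinker filamin, had 828, 747, 1336, 951, 1661, 2749, 2469 and 5259, and 1037 and 1221 in experiment B (2.52 ± 0.42, adjusted p = 0.030).

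Cp encodes ceruloplasmin, the copper-carrying ferroxidase, and had 314, 520, 724, 898, 808, 1132, 1914 and 1851 in experiment A and 387 and 633 in experiment B (2.46 ± 0.44, adjusted p = 0.043). Aldh2, the mitochondrial aldehyde dehydrogenase, had 601, 698, 1099, 1065, 1045, 1194, 1694 and 2126, and 436 and 1013 in experiment B (1.95 ± 0.32, adjusted p = 0.030). This probe set of Aldh2 is of a kind shared within gene families, and the slope of its other probe set, 1.64, did not pass. The fifth rising probe set was l12447_s_at (2.69 ± 0.45, adjusted p = 0.030). Gclc, described above, had a slope of 2.07 ± 0.39 that did not pass in the fit without the block (adjusted p = 0.061) and passed with it (adjusted p = 0.035). The same held for Gata2 on its other probe set and for Ccn2 (adjusted p = 0.021 and 0.038 with the block). All 3 also passed with the Gapdh control ratio as a covariate (adjusted p = 0.049 for Gclc, 0.025 for Gata2 and 0.048 for Ccn2). Of the 12 probe sets, 7 were also called for late days against day 0 in the fit of phases, which shares its late arrays with this one.

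**Figure D4:**
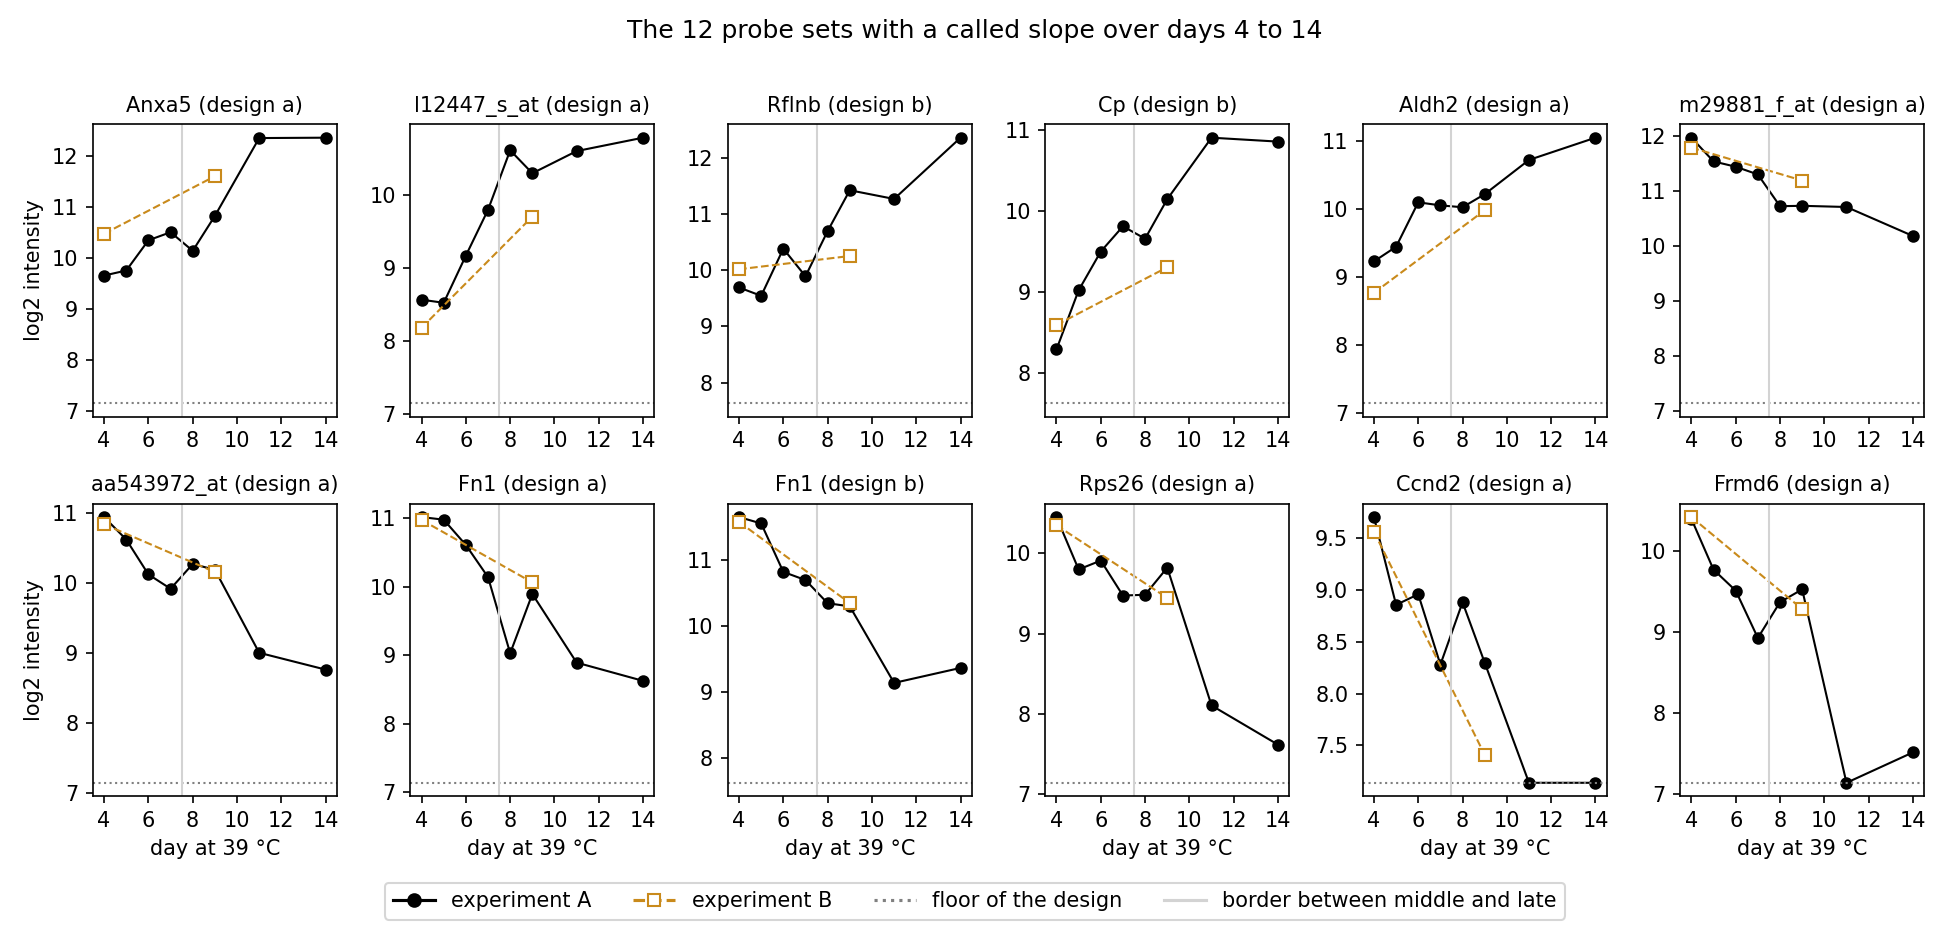
Log2 intensity (y axis) by day at 39 °C (x axis) for the 12 probe sets with a called slope, in order of slope. Circles are experiment A, squares experiment B, dotted lines the floor, and the vertical line separates middle from late days. The fitted changes over 10 days run from -3.01 for Frmd6 to 2.73 for Anxa5.

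The slope calls depended on single arrays. Leaving out day 4, 5, 6, 11 or 14 of experiment A, or the middle array of experiment B, gave 0. Leaving out day 7 or day 8 gave 9, and leaving out the day 9 arrays gave 5 for experiment A and 16 for experiment B. With each array's noise level as a covariate it was 0 in limma, with 514 at an unadjusted p under 0.05. The noise level on design a was 204 and 197 on days 11 and 14, against 75 on day 4 of experiment B, and with that covariate the slopes were -2.72 and -2.40 for Fn1, 2.71 for Anxa5, 2.65 for Rflnb, 2.81 for l12447_s_at, -2.20 for Frmd6, -2.16 for Ccnd2 and 1.53 for Aldh2.

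Days 4 and 9 were the only ones of these groups with an array in each experiment. Day 9 against day 4, with 2 arrays each, gave 0 called probe sets (0.0%) in limma, and 183 at an unadjusted p under 0.05. Leaving out the day 9 array gave 70 for experiment A and 46 for experiment B, and leaving out the day 4 array gave 0 and 7, each leaving 1 array on a side that was taken to vary like the other days. Each experiment's own difference can still be set beside the other. Among the 12 genes of lowest p that were higher late, day 9 was above day 4 for 11 in experiment A and 12 in experiment B, and among the 12 that were lower, it was below for 11 in each. Day 9 is 1 of the days that chose these genes, so these counts describe them and test nothing.

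Gsta3 and Ifit3 had similar sizes in both experiments, 2.43 in experiment A and 2.46 in experiment B for the first and 1.97 and 2.05 for the second. Gclc had 1.68 and 1.54, Bmp4 0.89 and 1.05, and Fn1 of design b -1.35 and -1.23. The stress factors differed in size, with 2.16 and 0.33 for Ddit3 and 2.86 and 0.33 for Atf5. Rflnb had 1.73 and 0.24, Igfbp7 -1.76 and -3.11, H2-D1 -0.85 and 0.04, and Got1 0.30 and -1.05. None of these genes passed a test of the difference between the experiments.

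**Figure D5:**
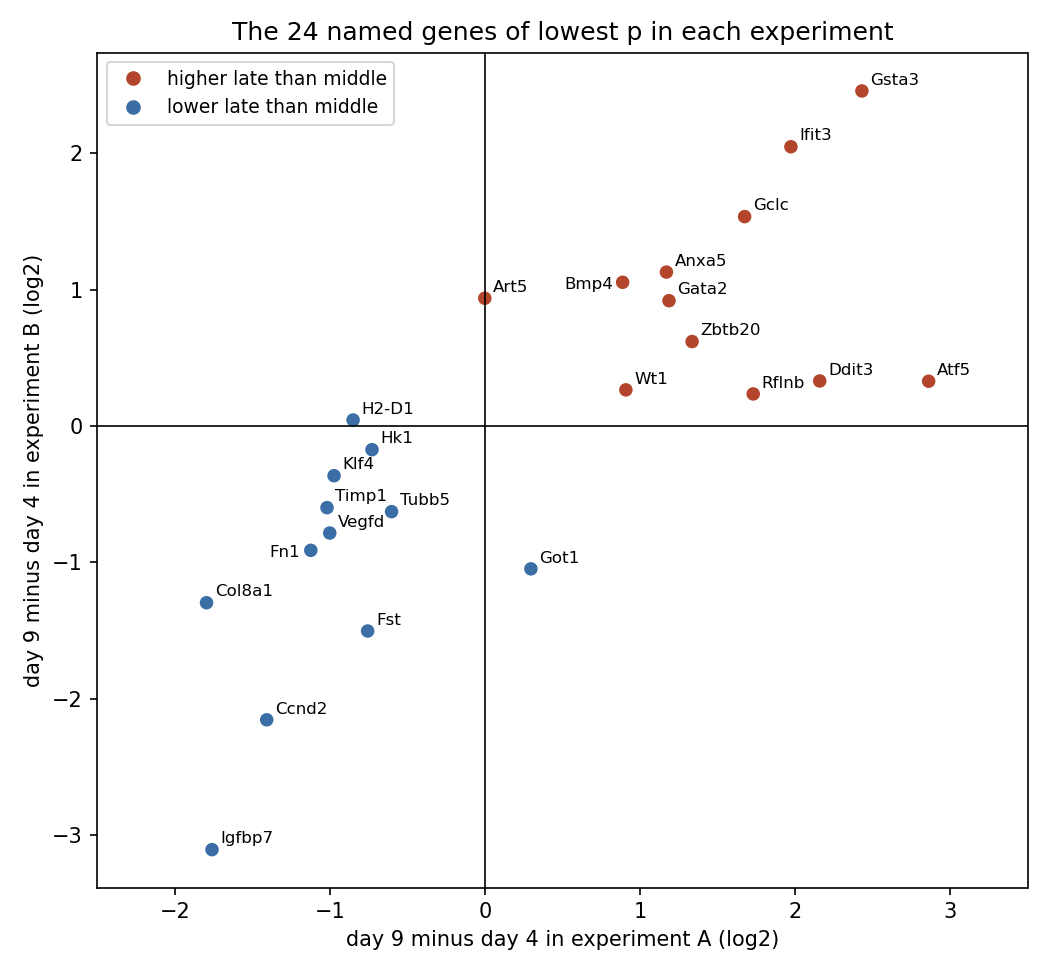
Day 9 minus day 4 (log2) in experiment A (x axis) and in experiment B (y axis) for the 24 genes of lowest p, coloured by the direction of late minus middle. Each value rests on 1 array per day. Ddit3 and Atf5 lie at 2.16 and 2.86 in experiment A but at 0.33 in experiment B.

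Genes most like the leading ones across the 16 arrays of a design were described by Pearson's r of log2 values. Those most like Ddit3 were Sbp (0.91), Zfy1 (0.87) and Znrf2 (0.82), and those most like Fn1 of design a were Rps26 (0.92), Agfg1 (0.91) and Plin2 (0.91). These points share arrays, noise and the floor, at which many of the Ddit3 values lie.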

How the data were processed

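RNA of UB/OC-1 samples was measured on 2 oligonucleotide array designs. The authors deposited 1 intensity per probe set and array, on a linear scale with negative values. The trimmed means of the arrays are alike, so the values had been scaled, and the software is not given in the sources used here. Of 6584 probe sets on design a and 6595 on design b, 61 controls each were left out. Values under the floor, the 75th percentile of the size of negative values (141 on design a, 198 on design b), were raised to it and log2 was taken. Probe sets above it on at least 2 of 16 arrays were tested, 4294 on design a and 3432 on design b. Each design was fitted on its own with limma 3.58.1 in R 4.3.3 (lmFit, eBayes with trend and robust), with a mean for day 0, early, middle and late days, and p-values were adjusted by Benjamini-Hochberg over both designs at 0.05. The slope was fitted over days 4 to 14, and days 9 and 4 were compared on their own. The scripts were tested on simulated data.

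The experiments pair samples by the labels, and differences between the experiments on different days correlated with r of 0.27 to 0.69 on design a and 0.39 to 0.73 on design b, so fits blocked by experiment are reported where they change a call. Symbols came from the platform annotation, with 1 symbol for 5541 and 2001 probe sets, several for 197 and 27 and none for 785 and 4506 on designs a and b. A probe set with several symbols is called by its ID, and those ending in _f_at are shared within families. Probe sets of this kind also gave the values of Rps26, Aldh2, Hk1, Tmsb10, Hspa8, Igf2, Cdkn1a, Top2a, Actb and Gapdh. Named genes were the 12 of lowest p in each direction, those with a called slope, up to 4 per gene list and 15 fixed genes, with genes of the marker lists given as counts. Members and lists were chosen with earlier results of these data known. Alternatives were the floor, the filter, the normalization, the block, experiment A alone, other scales and fits, and leaving out each array. The noise and Gapdh covariates for the slope, the slope without days 11 and 14, and the test of a difference between experiments were chosen after seeing the data.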

Additional observations from a re-analysis of the deposited data

Results flagged for a closer look

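Of 92 groups of 5 arrays, checked for 46 of the named probe sets, 11 held a value apart from the other 4. Chance gives about 1 in 20 where values are untied, but in the groups of Ddit3, Iigp1, Top2a and Cdkn1a several arrays are tied at the floor, so that rate does not apply to them and the number of such groups is no measure of excess. On the log2 scale, Gata2 on day 8 was at 9.21, below the other 4 late arrays, Klf4 on day 9 of experiment B at 9.21 (nearest 8.30), Cdkn1a on the same array at 9.86 (nearest 7.89) and Dcn on the same day of experiment B at 12.3 (nearest 14.0). Pcna on day 11 was at 8.45 (nearest 9.32). Top2a was at 8.71 on day 11 (nearest 7.65) and at 8.16 on day 7 (nearest middle array 7.68). Iigp1 was at 7.71 on day 9 of experiment A (nearest 7.19) and at 8.03 on day 4 of experiment A (nearest 7.14). Among middle arrays, Hk1 on day 6 was at 12.07 (nearest 11.84). Ddit3 on day 7 was at 7.73, with the other 4 at the floor of 7.63.

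The difference of late minus middle differed between the experiments for 27 probe sets in a test of the interaction with limma, and 351 had an unadjusted p under 0.05. For all 27, every array of experiment A in one of the 2 phases was at the floor.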

How the results depend on the processing

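The count for late against middle was 4 with experiment as a block, 2 in experiment A alone (Ddit3 and Atf5), 4 with the Gapdh control ratio as a covariate and 0 to 3 without single arrays, the 3 being Ddit3, Atf5 and Fn1 without day 9 of experiment B. The slope count of 12 became 20 with experiment as a block, 2 without trend and robust, 1 in experiment A alone, 0 with the noise level as a covariate, 0 without days 11 and 14, and 0 to 16 without single arrays. Day 9 against day 4 gave 1 with the higher floor, 4 with quantile normalization, 0 with experiment as a block (351 at an unadjusted p under 0.05) and 0 to 70 without single arrays. The causes were not tested. Differences near 0 changed sign. Gapdh was at -0.0353 in experiment A alone and -0.0823 with the noise level, and at -0.13 to 0.13 without single arrays. Top2a was at -0.0335 with the lower floor and -0.11 to 0.21 without single arrays, and Iigp1 at 0 with the higher floor and -0.17 to 0.12. Without single arrays Pcna ran from -0.24 to 0.0464, Actb from -0.0218 to 0.29 and Orm1 from -0.0573 to 0.22. Over all named probe sets and settings, 2799 values of late against middle kept direction and call, 13 passed the test where the fit of all arrays did not, and 13 changed sign. Of the values for probe sets with a called slope, 101 kept the call and 139 lost it. At the floor, low genes have no measured order.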
